A study of Mus musculus with 24 samples.

Results

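The Hox genes were taken as every gene of the count table whose symbol reads Hox, a cluster letter from a to d and a number. The rule found 39 of 55376 genes, and all 39 are annotated as protein-coding. On the mouse genome (GRCm38) they form 4 clusters, namely Hoxa with 11 genes on the minus strand of chromosome 6 (chr6:52155590-52260880), Hoxb with 10 on the plus strand of chromosome 11 (chr11:96194316-96368256), Hoxc with 9 on the plus strand of chromosome 15 (chr15:102921103-103036852) and Hoxd with 9 on the plus strand of chromosome 2 (chr2:74668310-74765142). HOX proteins are homeodomain transcription factors that set the identity of segments along the body axis of the embryo. Genes with the same number in different clusters are paralogs, and neighbours in a cluster tend to be switched on together. In adult blood, members of the Hoxa and Hoxb clusters are known for their expression in stem and progenitor cells and for their decline as the cells mature, and Hoxa9 with its cofactor Meis1 is known as an oncogene of leukaemia.

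Bulk mRNA-seq had been made from 24 samples of bone marrow cells of untreated mice, in 6 groups. TTPΔARE mice are homozygous for an allele of Zfp36 without the AU-rich element of its 3′ untranslated region, which they carry in all their cells, and WT mice are their littermates. Zfp36 encodes tristetraprolin (TTP), a protein that binds AU-rich elements and speeds the decay of the mRNAs that hold them. Hematopoietic stem cells (HSCs), sorted as CD150+ cells, came from 4 young WT (Y-WT), 4 young TTPΔARE (Y-TTPΔARE), 5 middle-aged WT (M-WT) and 3 middle-aged TTPΔARE (M-TTPΔARE) samples, and MPP3 cells, multipotent progenitors primed for granulocytes and monocytes, from 4 Y-WT and 4 Y-TTPΔARE samples. Only male mice were used, so the values speak for males alone. The labels do not say whether each library is a mouse of its own, so p-values measure the spread between these libraries, which may be technical.

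Library totals lay between 24261371 and 39934554 counts. Levels are given as CPM, the counts of a gene divided by the size of its library and set to a common size, with sizes scaled by TMM factors over the 24 libraries. The targeted gene, Zfp36, had a higher mean in each TTPΔARE group than in the matching WT group (94.9 ± 8.31 against 47.5 ± 17.3 CPM in young HSCs, 102 ± 5.80 against 50.2 ± 7.22 in middle-aged HSCs and 105 ± 19.2 against 29.5 ± 7.32 in MPP3 cells, mean ± SD). All 12 markers of a list for HSCs were over 1 CPM on average in every group, and their sum lay between 3831 and 6194 CPM in HSC libraries and between 2096 and 3330 in MPP3 libraries. A list of 11 markers for MPP3 cells summed to 342–615 CPM in HSC and 2512–5346 in MPP3 libraries, so the labels of the cell types matched their markers. Olfactory and vomeronasal receptor genes, 1971 genes that blood cells are not known to use, took between 18.8 and 983 CPM of a library, and were over 500 CPM in Y-WT HSC replicates 2, 3 and 4 and in Y-TTPΔARE MPP3 replicate 3.

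A Hox gene was counted as expressed in a group when it reached 1 CPM in every library of the group. By this measure 15 of the 39 were expressed in at least 1 group, 9 of them in all 6 groups, and 24 in none. The 15 were Hoxa2, Hoxa3, Hoxa5, Hoxa6, Hoxa7, Hoxa9 and Hoxa10 of the Hoxa cluster, Hoxb2, Hoxb3, Hoxb4, Hoxb5, Hoxb6, Hoxb7 and Hoxb9 of the Hoxb cluster, and Hoxc6. No Hoxd gene reached the limit in any group. The 9 expressed everywhere were Hoxa3, Hoxa5, Hoxa7, Hoxa9, Hoxa10, Hoxb2, Hoxb3, Hoxb4 and Hoxb5.

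The groups differed at the edge of this set. Y-WT HSCs expressed 12 members, 6 Hoxa and 6 Hoxb genes. Y-TTPΔARE HSCs expressed 14, with Hoxa2 and Hoxc6 besides those 12, and M-WT HSCs also 14, with Hoxa2 and Hoxb7 besides the 12. In Y-WT HSCs Hoxa2 (mean 1.45 CPM) and Hoxb7 (1.83) missed the limit through 1 of 4 libraries each, and with a library left out the number in that group ran from 12 to 14. M-TTPΔARE HSCs expressed all 15. In MPP3 cells the number was 10 in Y-WT and 9 in Y-TTPΔARE, the difference being Hoxa6, which was at 0.770 CPM in Y-TTPΔARE MPP3 replicate 4. Hoxb6, Hoxb7, Hoxb9, Hoxa2 and Hoxc6 did not reach the limit in an MPP3 group, although Hoxa2 was over 1 CPM in 3 of 4 and Hoxb6 in 2 of 4 Y-TTPΔARE MPP3 libraries. Hoxa2 had means of 1.63 CPM there and 1.68 in Y-TTPΔARE HSCs (log2 fold change -0.20, adjusted p = 0.863 from edgeR). As a share, the expressed members made up 30.8% of the 39 in Y-WT HSCs and 25.6% in Y-WT MPP3 cells, where 26.9% and 25.0% of all genes passed the same limit. It was 35.9% in Y-TTPΔARE HSCs, 35.9% in M-WT HSCs, 38.5% in M-TTPΔARE HSCs and 23.1% in Y-TTPΔARE MPP3 cells, next to 26.6%, 26.1%, 26.8% and 25.3% of all genes.

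**Figure D1:**
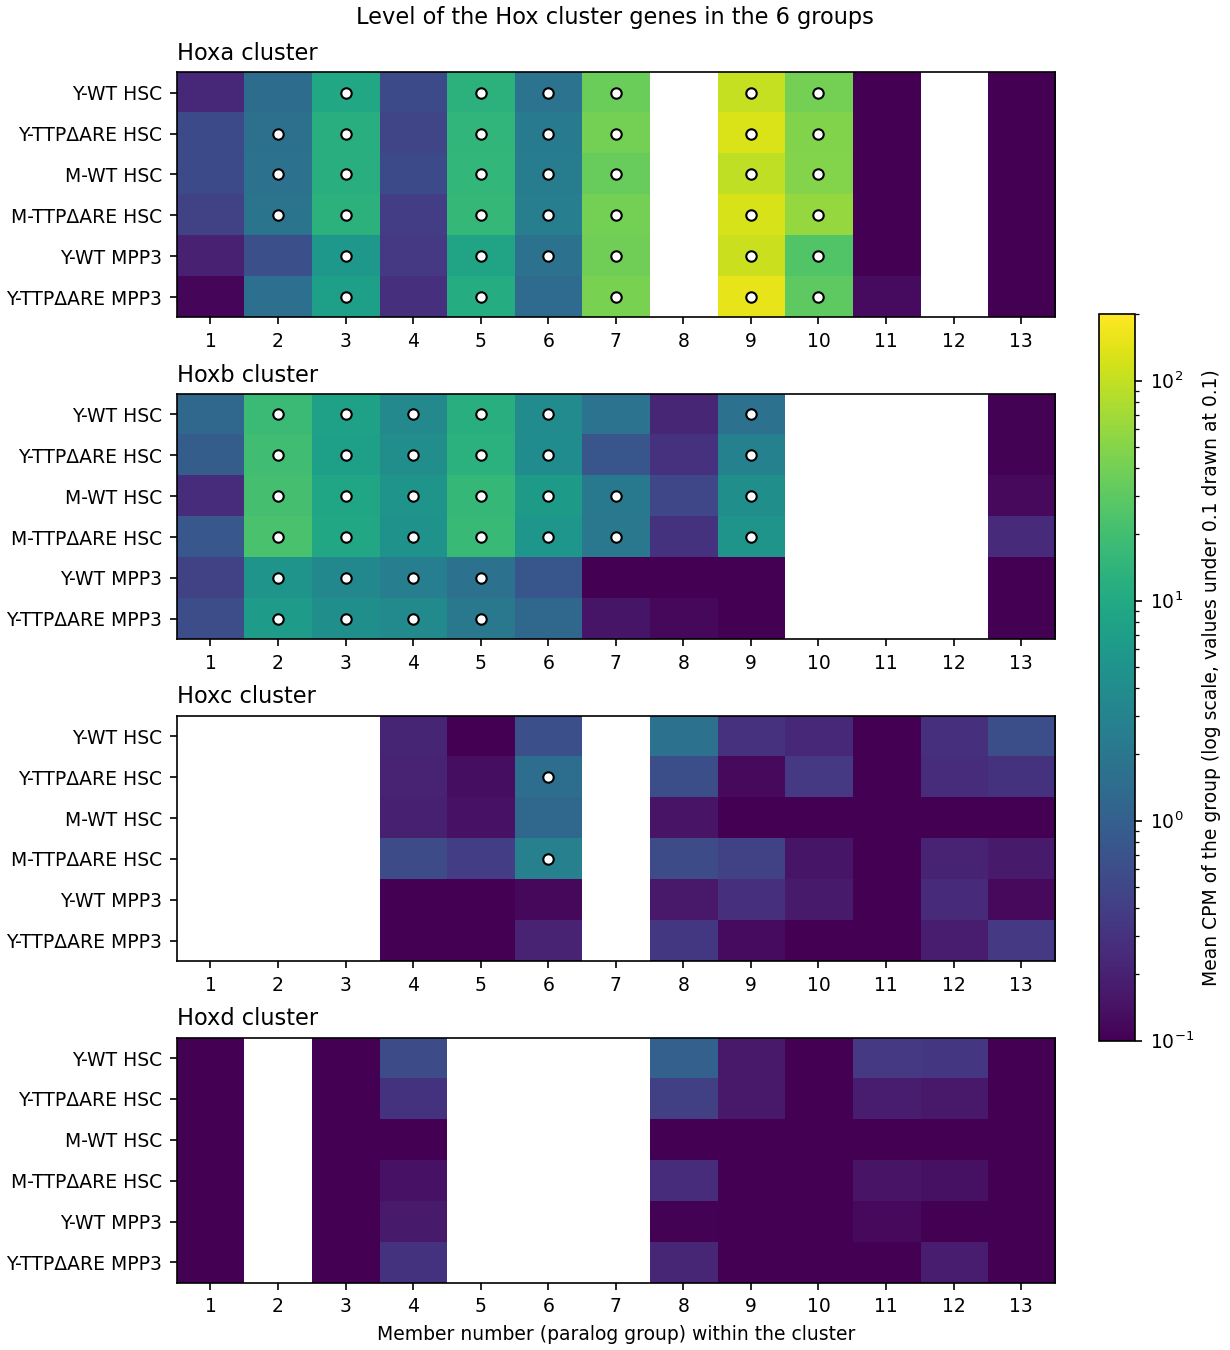
Heat map of the mean level of the 39 Hox genes, in CPM on a log colour scale. Each of the 4 clusters has a panel, with rows for the 6 groups and columns for the paralog number. A dot marks a gene that reached 1 CPM in every library of the group. In the Hoxa and Hoxb panels the dots lie between numbers 2 and 10. The Hoxc panel holds dots at number 6 only, and the Hoxd panel holds none. Hoxb6, Hoxb7 and Hoxb9 have no dot in the MPP3 rows.

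The Hoxa cluster supplied most of the Hox transcripts. Its share of the summed Hox CPM lay between 74.3% and 83.0% in the 16 HSC libraries and between 89.1% and 94.8% in the 8 MPP3 libraries, and no HSC library overlapped an MPP3 library. The share of the Hoxb cluster lay between 15.1% and 24.7% in HSCs and between 5.09% and 8.56% in MPP3 cells. Hoxc and Hoxd genes together stayed minor, with at most 2.39% and 1.59% of the Hox CPM in any library. Summed over the 39 genes, the level was 235–300 CPM in Y-WT HSCs, 293–321 in Y-TTPΔARE HSCs, 266–292 in M-WT HSCs, 317–346 in M-TTPΔARE HSCs, 172–240 in Y-WT MPP3 cells and 220–354 in Y-TTPΔARE MPP3 cells.

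To compare genes with each other, CPM were divided by the exon length of each gene in kb (GENCODE M21). Hoxa9 (chr6:52223100-52231089) ranked above all other Hox genes in each of the 6 groups, and its lowest library lay above the highest library of the next gene in each. Its level was 18.4 ± 2.54 CPM per kb in Y-WT HSCs (SD, n = 4), 23.5 ± 1.04 in Y-TTPΔARE HSCs (n = 4), 17.2 ± 0.690 in M-WT HSCs (n = 5), 22.6 ± 1.38 in M-TTPΔARE HSCs (n = 3), 19.5 ± 3.54 in Y-WT MPP3 cells (n = 4) and 27.1 ± 5.61 in Y-TTPΔARE MPP3 cells (n = 4). Hoxa7 and Hoxa10 took the next places. In Y-WT HSCs their ranges overlapped, with 12.7 ± 0.554 CPM per kb for Hoxa7 and 12.5 ± 2.08 for Hoxa10, while in Y-WT MPP3 cells Hoxa7 stood at 13.2 ± 1.49 and Hoxa10 at 7.83 ± 0.428, with no overlap. Hoxa5 came after them in every group, between 4.50 ± 0.687 in Y-WT MPP3 cells and 8.37 ± 1.52 in M-TTPΔARE HSCs. In all 4 HSC groups Hoxb2 and Hoxb5 followed, with overlapping ranges (5.15 ± 0.836 and 4.28 ± 0.793 CPM per kb in Y-WT HSCs), and every other member lay lower.

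Across the paralog numbers with an expressed gene in both clusters (2, 3, 5, 6, 7 and 9) the balance between Hoxa and Hoxb genes differed. At number 2 the Hoxb gene had the higher level in every group, and the ratio of Hoxa2 to Hoxb2 in CPM per kb was 0.158 in Y-WT HSCs. Hoxa3 and Hoxb3 were nearly level, with a ratio of 0.858 in Y-WT HSCs and 1.19 in Y-WT MPP3 cells. Hoxa5 exceeded Hoxb5 by a ratio of 1.65 in Y-WT HSCs and of 7.33 in Y-WT MPP3 cells, and the ratios in Y-TTPΔARE were 1.72 and 7.89. At number 6 the ratio was 1.02 in Y-WT HSCs and 5.25 in Y-WT MPP3 cells, and at numbers 7 and 9 the Hoxa gene exceeded its Hoxb paralog by ratios of 10.7 and 28.0 in Y-WT HSCs. These ratios are of group means, and no test was run on them.

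Promoter sequences, from 250 bases before to 50 after a start site, were at hand for 22 of the 39 members (24 sites, RefSeq, GRCm38.p6). Those of 4 Hoxa genes are shown because they span from the most abundant member to a member that was not expressed; all lie on the minus strand, each is written 5′ to 3′ along the gene, and capitals mark the dinucleotide CG, which reads the same on both strands. Hoxa9 is at chr6:52227321-52227620, Hoxa5 at chr6:52204538-52204837, Hoxa3 at chr6:52213018-52213317 and Hoxa13, which was under 1 CPM in all 24 libraries, at chr6:52260831-52261130.
Hoxa9: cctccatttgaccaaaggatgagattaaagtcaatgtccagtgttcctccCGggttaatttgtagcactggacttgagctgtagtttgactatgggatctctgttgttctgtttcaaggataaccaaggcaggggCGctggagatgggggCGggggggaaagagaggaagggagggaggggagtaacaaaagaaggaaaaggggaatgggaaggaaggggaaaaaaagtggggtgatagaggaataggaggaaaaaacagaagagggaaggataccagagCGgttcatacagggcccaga
Hoxa5: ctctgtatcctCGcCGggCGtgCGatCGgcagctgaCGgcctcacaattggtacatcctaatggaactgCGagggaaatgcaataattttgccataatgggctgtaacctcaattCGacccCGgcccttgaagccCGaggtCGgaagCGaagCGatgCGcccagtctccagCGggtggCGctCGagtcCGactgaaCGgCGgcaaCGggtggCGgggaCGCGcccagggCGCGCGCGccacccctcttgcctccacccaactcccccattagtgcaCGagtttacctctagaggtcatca
Hoxa3: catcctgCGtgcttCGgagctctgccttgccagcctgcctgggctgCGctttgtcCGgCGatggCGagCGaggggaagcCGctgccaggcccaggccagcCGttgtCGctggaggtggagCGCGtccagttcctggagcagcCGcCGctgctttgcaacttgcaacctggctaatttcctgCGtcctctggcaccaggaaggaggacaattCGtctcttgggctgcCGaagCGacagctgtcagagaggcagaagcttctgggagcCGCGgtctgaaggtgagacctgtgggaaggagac
Hoxa13: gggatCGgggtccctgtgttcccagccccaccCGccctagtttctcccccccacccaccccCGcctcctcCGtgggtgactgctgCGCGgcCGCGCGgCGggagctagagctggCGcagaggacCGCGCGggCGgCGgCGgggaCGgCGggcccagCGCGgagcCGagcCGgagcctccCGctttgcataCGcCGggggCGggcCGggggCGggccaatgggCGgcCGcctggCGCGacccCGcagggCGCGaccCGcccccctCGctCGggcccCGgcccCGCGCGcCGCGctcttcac
The window of Hoxa9 holds 4 CG, that of Hoxa5 29, that of Hoxa3 20 and that of Hoxa13 45. Over the 24 Hox windows the median was 14.5, against 7 over all 32851 windows at hand, which belong to 27025 genes. The 9 windows of expressed members came from 8 of the 15 expressed genes, mostly of the Hoxa cluster, and held 4 to 29 CG (median 14). The 15 windows of members expressed in no group held 4 to 45 (median 15). Among the windows at hand, the count of CG thus did not part expressed from other members. The letters CCAAT, searched on both strands, occurred in 62.5% of the Hox windows and in 37.4% of all windows.

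The first comparison asked how MPP3 cells differ from HSCs, within young WT mice. Hoxb2, Hoxb3 and Hoxb5 were called lower in MPP3 cells than in HSCs. Hoxb4, the remaining Hoxb gene expressed in all 6 groups, also had a lower mean. The Hoxa genes parted, with Hoxa3, Hoxa5 and Hoxa10 called lower and no call for Hoxa7 and Hoxa9. With edgeR's quasi-likelihood test, a call needed an average logCPM over 1.5, an adjusted p (Benjamini-Hochberg, over all genes tested) under 0.05 and a change of more than 1.2-fold. Of 20 Hox genes tested 6 were called lower and 0 higher, and among all 22816 genes tested 7.69% were called lower. Over the members expressed in all 6 groups, the median log2 fold change was -1.55 for 4 Hoxb genes and -0.70 for 5 Hoxa genes, and it was -0.16 over all genes tested. Scaled by library totals in place of TMM factors, the median of all genes was -0.38, the share of higher genes among all calls was 34.3% in place of 65.4%, and 6 members were again called lower.

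Hoxb5 (chr11:96303336-96306121) showed the steepest fall of the called members. Its level was 14.4, 9.67, 10.5 and 13.0 CPM in the 4 Y-WT HSC libraries and 1.90, 1.21, 2.48 and 1.24 in the 4 Y-WT MPP3 libraries. The lowest HSC library was thus well above the highest MPP3 library, and the log2 fold change was -2.86 (SE 0.26, adjusted p = 8.8e-05), a 7.28-fold lower level. Hoxb5 is known as a marker of long-term HSCs. Hoxb2 (chr11:96350525-96354012) had 21.6, 17.1, 14.6 and 18.6 CPM in HSCs against 6.67, 3.84, 6.33 and 3.71 in MPP3 cells, a log2 fold change of -1.87 (SE 0.22, adjusted p = 0.000329). Hoxb3 (chr11:96323326-96347930), next to it, had 9.30, 6.74, 8.13 and 7.00 against 3.63, 3.41, 3.58 and 3.11 CPM, a log2 fold change of -1.23 (SE 0.18, adjusted p = 0.00102). For both genes the groups did not overlap. By sequence shared with the antisense gene Hoxb3os, 52.9% of the exon bases of Hoxb3 and 27.3% of those of Hoxb2 lie over exons of the other strand, and whether the authors counted by strand is not given in the sources used here. Reads of these pairs may therefore not be told apart, and Hoxb3os itself had a log2 fold change of -1.61 (SE 0.18, adjusted p = 0.000246).

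Of the Hoxa genes, Hoxa10 (chr6:52231197-52240854), the neighbour of Hoxa9 in the cluster and known to act in progenitor expansion, had 48.0, 44.1, 32.3 and 38.95 CPM in the Y-WT HSC libraries and 27.6, 25.3, 25.3 and 24.3 in the Y-WT MPP3 libraries. The groups did not overlap, and the log2 fold change was -0.72 (SE 0.14, adjusted p = 0.00448). Hoxa5 (chr6:52201754-52204587) had 15.2, 12.0, 11.2 and 14.7 CPM against 9.42, 6.82, 9.55 and 8.01, a log2 fold change of -0.70 (SE 0.16, adjusted p = 0.00998). Hoxa3 (chr6:52169062-52213336) had 10.6, 8.95, 8.25 and 10.1 CPM against 6.91, 5.35, 5.90 and 4.93, a log2 fold change of -0.76 (SE 0.15, adjusted p = 0.0061). Both again parted the cell types with no overlap, by folds of 1.63 and 1.70, although 27.1% of the exon bases of Hoxa3 are shared with genes that overlap it, most of them on the other strand. For all 6 called members the two-sided exact permutation test on log2 CPM gave p = 0.0286, the smallest that 4 against 4 libraries allow.

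Hoxa9 and Hoxa7 lie between Hoxa10 and Hoxa5 on the chromosome. Hoxa9 had 123, 94.3, 91.9 and 102 CPM in Y-WT HSCs and 133, 85.8, 103 and 114 in Y-WT MPP3 cells, a log2 fold change of 0.04 with a 95% interval from -0.27 to 0.35. Hoxa7 (chr6:52214491-52221854) had 38.5, 35.5, 35.1 and 37.4 CPM against 39.4, 34.5, 43.6 and 34.8, a log2 fold change of 0.01 (interval -0.16 to 0.19). Both sets of ranges overlapped, and the intervals leave out the size of the fall seen for Hoxa5. Hoxb4, a gene used to expand HSCs in culture, had a log2 fold change of -0.50 (SE 0.28, adjusted p = 0.226) and overlapping ranges.

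**Figure D2:**
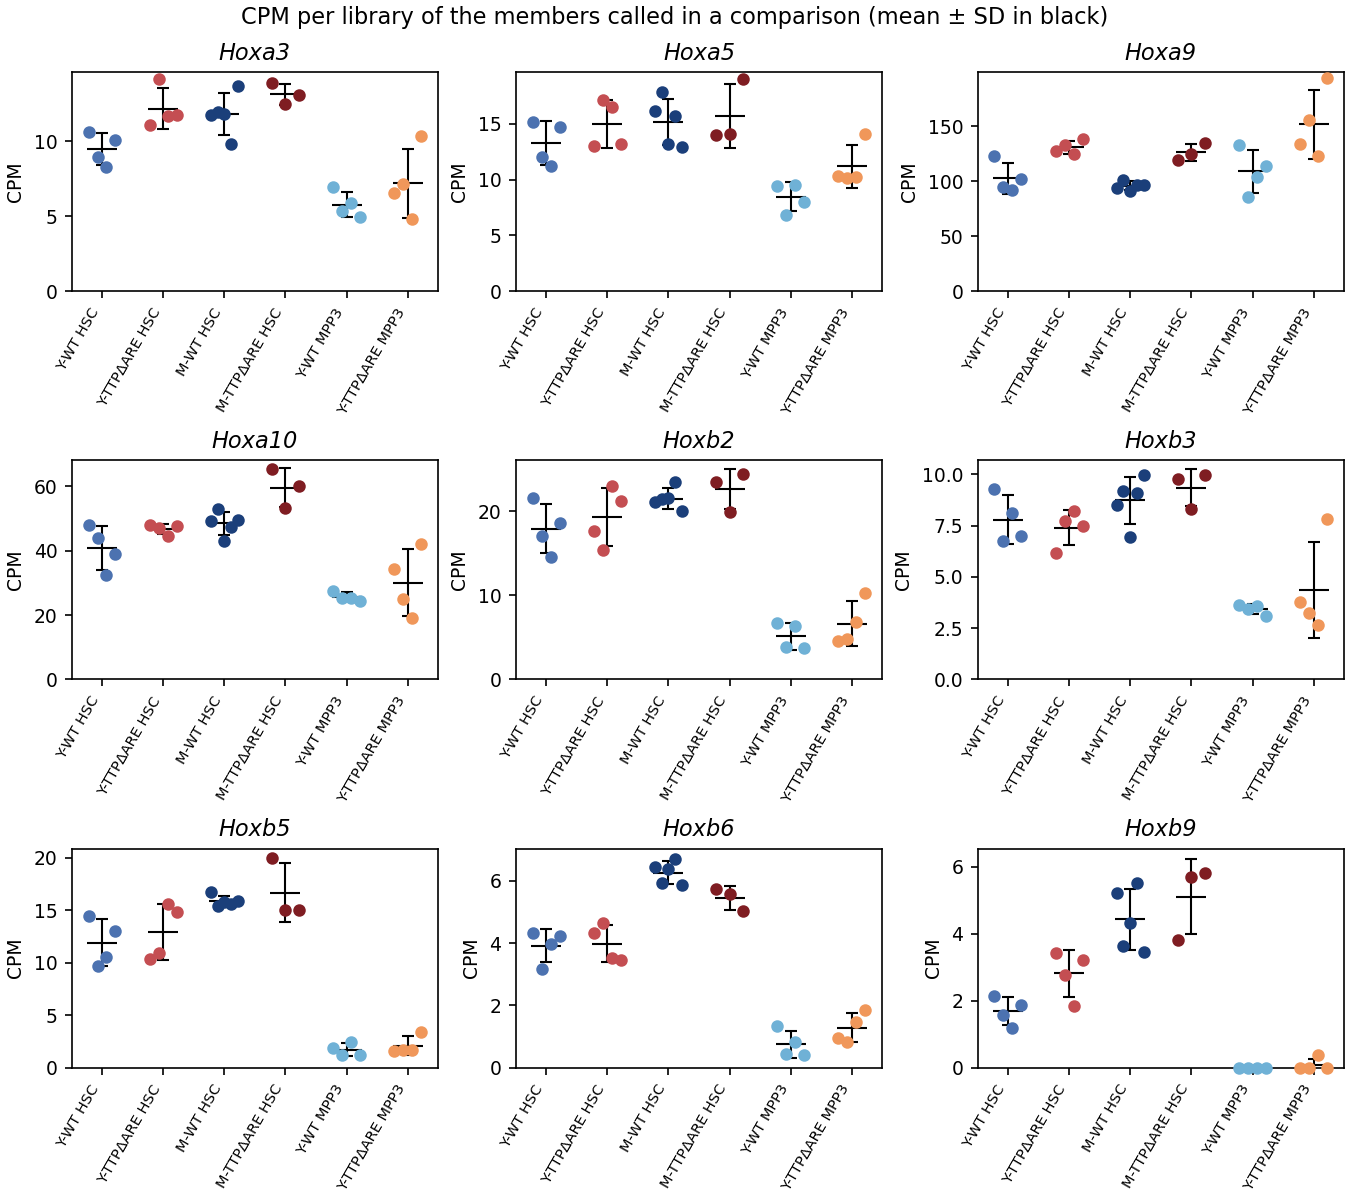
CPM of the 9 Hox genes called in at least 1 comparison, in a panel each with its own vertical axis from 0, with a point for every library, the 6 groups along the horizontal axis, and the group mean ± SD beside the points. In the panels of Hoxb2, Hoxb3 and Hoxb5 the Y-WT MPP3 points lie below all HSC points, and in that of Hoxa9 the MPP3 points run from 85.8 to 194 CPM, past both ends of the HSC points (91.3 to 138).

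The lowest expressed members fell under the logCPM limit and so could not be called. Hoxb6 (chr11:96292476-96301569) had 4.32, 3.17, 3.97 and 4.22 CPM in Y-WT HSCs and 1.34, 0.433, 0.838 and 0.415 in Y-WT MPP3 cells, and its log2 fold change of -2.44 (SE 0.41) reached an adjusted p of 0.0024 from edgeR. Hoxb9 (chr11:96271457-96276595) had 223 counts summed over the 4 HSC libraries and 0 over the 4 MPP3 libraries, which is an at least 76.1-fold lower level when the MPP3 sum is set to a floor of 3 counts. Hoxb7 (chr11:96286623-96290162) had 249 counts against 2, a ratio of 127 with a 95% counting interval from 34.9 to 1059 that covers counting error only. Hoxc6 (chr15:102998257-103011881) had at most 0.207 CPM in a Y-WT MPP3 library and at least 0.341 in a Y-WT HSC library. Its values are given with no test, since it passed the filter on low counts through the HSC libraries. Bulk values cannot tell whether fewer cells of a sample expressed a gene or each cell held less of its RNA.

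In TTPΔARE mice MPP3 cells were compared with HSCs in another 8 libraries, which share none with the WT comparison. The 6 members called lower were again Hoxa3, Hoxa5, Hoxa10, Hoxb2, Hoxb3 and Hoxb5, of 20 tested, and 0 were higher. Among all 21478 genes tested 7.22% were called lower. Hoxb5 had 10.3, 10.9, 15.6 and 14.8 CPM in the Y-TTPΔARE HSC libraries and 1.60, 1.70, 1.70 and 3.42 in the Y-TTPΔARE MPP3 libraries, a log2 fold change of -2.75 (SE 0.24, adjusted p = 5.18e-05 from edgeR). Hoxb2 had 17.7, 15.4, 23.0 and 21.3 CPM against 4.62, 4.80, 6.83 and 10.3, a log2 fold change of -1.68 (SE 0.22, adjusted p = 0.00056). For both, the groups stood apart as in WT. Hoxa3 (log2 fold change -0.87, SE 0.20, adjusted p = 0.0111) and Hoxa10 (-0.76, SE 0.19, adjusted p = 0.019) also did not overlap between the cell types. The call of Hoxa10 was lost without any 1 of 4 libraries, HSC replicates 1, 2 and 4 and MPP3 replicate 2 (adjusted p from 0.0527 to 0.0792 from edgeR), and that of Hoxa3 without MPP3 replicate 1 (0.0574).

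For Hoxa5 and Hoxb3 the ranges overlapped, since Y-TTPΔARE MPP3 replicate 4 stood at 14.1 and 7.83 CPM, above the other MPP3 libraries (10.1–10.4 and 2.67–3.78). That library had a TMM factor of 0.731, against 0.891–0.968 in the other 3. Divided by library totals alone its levels were 10.3 and 5.72 CPM, under the lowest HSC library (13.5 and 6.42), so the overlap depended on the scaling. Their log2 fold changes were -0.53 (SE 0.14, adjusted p = 0.027) and -0.90 (SE 0.27, adjusted p = 0.045). In this comparison samples with the same replicate number deviated together, and with the replicate number as a block Hoxa5 was no longer called (log2 fold change -0.52, adjusted p = 0.0585 from edgeR). The call of Hoxa5 was also lost with no filter on low counts (0.104), with all 24 libraries in 1 fit (0.0604) and without any 1 of 6 libraries (from 0.0587 to 0.110), all but HSC replicate 4 and MPP3 replicate 4. The call of Hoxb3 was lost without any 1 of 7 of the 8 libraries (adjusted p from 0.0753 to 0.168), all but MPP3 replicate 4, without which it was 0.00314, and also with RLE factors (0.0567) or with no filter on low counts (0.0756). Without Y-TTPΔARE HSC replicate 1 or without replicate 2 of that group, 3 members remained called, namely Hoxa3, Hoxb2 and Hoxb5. Hoxb6 lay between 3.45 and 4.65 CPM in HSCs and between 0.834 and 1.84 in MPP3 cells (log2 fold change -1.77, SE 0.30, adjusted p = 0.00248 from edgeR, under the logCPM limit). Hoxb9 had 388 counts in HSCs and 10 in MPP3 cells, a ratio of 32.6 (95% counting interval 17.6 to 68.6), and all of the 10 came from replicate 3, while Hoxb7 was not tested here. Hoxc6, also under the logCPM limit, had 1.12–2.60 CPM in HSCs and 0.0856–0.321 in MPP3 cells. These values are given with no test, since Hoxc6 passed the filter on low counts through its HSC libraries.

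Whether the difference between cell types depended on the genotype was tested as an interaction over the 16 young libraries. No Hox gene of 27 tested was called, at an unadjusted p under 0.05 none of those over the logCPM limit passed either, and DESeq2 and edgeR's likelihood ratio test also called 0 (among all genes edgeR called 0.429%). The interaction was 0.11 on the log2 scale for Hoxb5 (SE 0.38) and 0.18 for Hoxb2 (SE 0.35). Cell type and library set cannot be told apart here, since the titles number the HSC and the MPP3 libraries in separate runs. The HSC marker list summed to 3831–4536 CPM in the young HSC libraries and 2096–3330 in the MPP3 libraries. The 8 endothelial markers also parted the cell types, at 452–876 CPM in HSCs and 341–384 in MPP3 cells of WT and at 459–527 and 322–409 in TTPΔARE, and so did the 5 megakaryocyte markers, at 168–195 and 139–154 in WT and 120–183 and 82.3–96.4 in TTPΔARE. The 8 stromal and bone markers went the other way in WT, from 29.2–41.8 to 65.8–126 CPM, and so did the 6 neutrophil markers in TTPΔARE, from 9.91–14.1 to 15.3–136. The part of these lists was not tested.

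**Figure D3:**
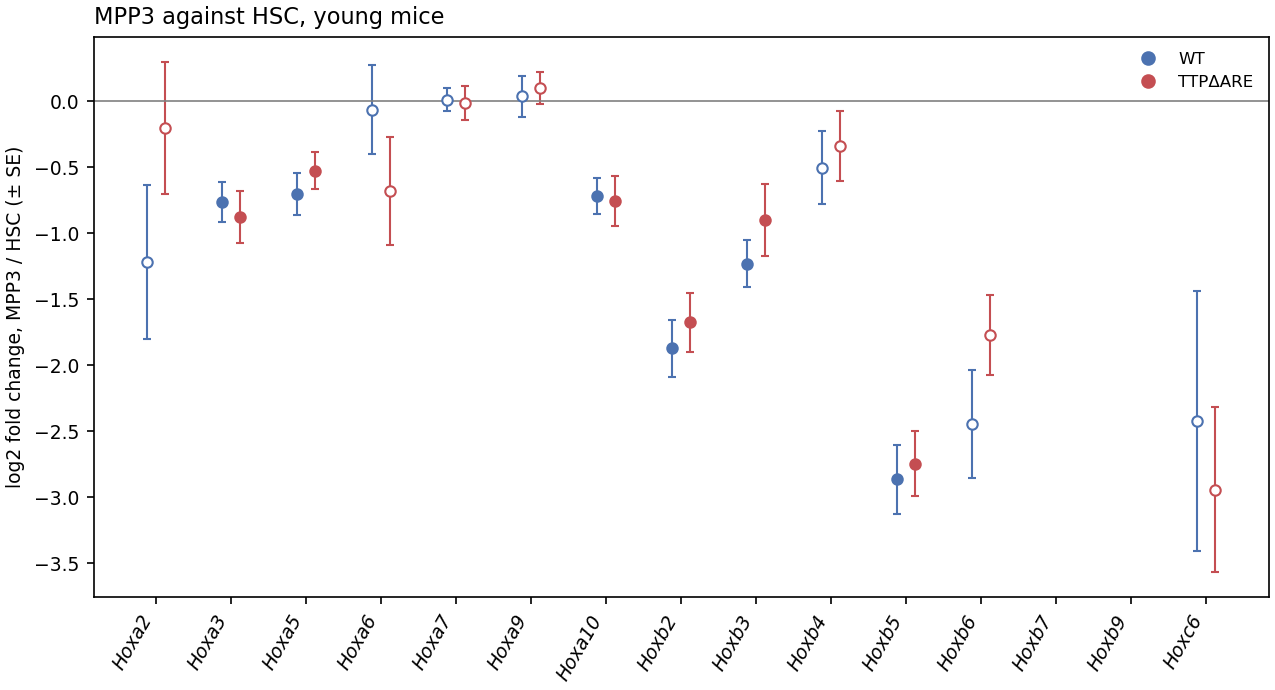
Log2 fold change of MPP3 cells over HSCs (± SE) for each expressed Hox gene in its chromosomal order, in young WT and in young TTPΔARE mice; filled points mark calls of edgeR, and Hoxb7 and Hoxb9, which had 0, 2 or 10 counts in an MPP3 group or were not tested, are not drawn. Hoxb5, Hoxb6 and Hoxb2 lie lowest among the Hoxa and Hoxb genes, and Hoxa7 and Hoxa9 lie on the zero line in both genotypes.

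The second comparison asked how middle-aged HSCs differ from young HSCs. In WT mice the 4 Hoxb genes expressed in all 6 groups had higher means in middle-aged HSCs. Hoxb5, Hoxb6 and Hoxb9 were called higher. Of 22 Hox genes tested, 3 were called higher and 0 lower, and 8.38% of all 22280 genes tested were called higher. Over the members expressed in all 6 groups, the median log2 fold change was 0.33 for 4 Hoxb genes and 0.18 for 5 Hoxa genes. It was -0.04 over all genes tested. The 12 HSC markers moved with age too, summing to 3831–4312 CPM in Y-WT and 4877–5688 in M-WT HSCs, with none at 0 in a group, and their part in the age values was not tested.

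Hoxb9 had 2.15, 1.57, 1.19 and 1.86 CPM in the Y-WT HSC libraries and 5.22, 3.64, 4.32, 5.51 and 3.46 in the M-WT HSC libraries. All 5 middle-aged libraries lay above all 4 young ones, and the log2 fold change was 1.38 (SE 0.22, adjusted p = 0.0026 from edgeR), a 2.60-fold higher level. Hoxb6 had 4.32, 3.17, 3.97 and 4.22 CPM against 6.46, 5.94, 6.37, 6.72 and 5.85, a log2 fold change of 0.67 (SE 0.13, adjusted p = 0.00566). Hoxb5 had 14.4, 9.67, 10.5 and 13.0 CPM against 16.7, 15.4, 15.8, 15.6 and 15.9, a log2 fold change of 0.41 (SE 0.12, adjusted p = 0.0312). The call of Hoxb5 was lost without any 1 of 5 libraries, M-WT replicates 1, 3 and 5 and Y-WT replicates 2 and 3 (adjusted p from 0.0567 to 0.0837 from edgeR), and with the replicate block (0.0648). With all 24 libraries in 1 fit none of the 3 was called (0.0939 for Hoxb6, 0.107 for Hoxb9 and 0.181 for Hoxb5). None of the 3 overlapped between the ages, with p = 0.00794 in the two-sided exact permutation test, the smallest that 5 against 4 libraries allow. The exons of Hoxb6 and Hoxb9 overlap no other gene.

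No other member was called. Hoxb4 (log2 fold change 0.54, SE 0.19, adjusted p = 0.0665), Hoxa3 (0.31, SE 0.12, adjusted p = 0.0816), Hoxb2 (0.25, SE 0.10, adjusted p = 0.0814) and Hoxa10 (0.24, SE 0.11, adjusted p = 0.119) had an unadjusted p under 0.05 and did not pass after adjustment in edgeR. Hoxa9 went from 91.9–123 CPM in young to 91.3–101 in middle-aged WT HSCs, a log2 fold change of -0.10 (95% interval -0.26 to 0.05). Receptor genes summed to 597, 790 and 983 CPM in the Y-WT HSC libraries 4, 2 and 3, to 61.4 in replicate 1 and to 39.2–209 in M-WT HSCs. With the 3 libraries over 500 CPM left out, an alternative chosen after seeing the data, 0 members were called, and the single young library left, which was assumed to vary like the M-WT libraries, gave log2 fold changes of 1.05 for Hoxb9 (adjusted p = 0.106), 0.55 for Hoxb6 (adjusted p = 0.178) and 0.15 for Hoxb5 (adjusted p = 0.612).

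In TTPΔARE mice 4 young and 3 middle-aged HSC libraries were compared. The young ones are those set against MPP3 cells above, and none was in the WT age comparison. Hoxa10 was the only member called, of 25 tested, and 4.98% of all 23336 genes tested were called higher. It had 47.8, 46.9, 44.6 and 47.6 CPM in Y-TTPΔARE and 65.4, 53.2 and 60.1 in M-TTPΔARE HSCs, a log2 fold change of 0.35 (SE 0.09, adjusted p = 0.042 from edgeR), and the groups did not overlap. In the same libraries the 12 HSC markers summed to 4442–4536 CPM in young and 5584–6194 in middle-aged HSCs, the 11 MPP3 markers to 442–549 and 342–356, the 8 T and NK cell markers to 59.95–143 and 45.1–58.4 and the 6 neutrophil markers to 9.91–14.1 and 3.31–4.81. The part of these lists in the call was not tested. The call was lost without any of 4 libraries, M-TTPΔARE replicates 1 and 3 and Y-TTPΔARE replicates 3 and 4, and also with the likelihood ratio test (adjusted p = 0.106), the replicate block (0.140) and all 24 libraries in 1 fit (0.448), all from edgeR. Hoxb9 had 3.41, 2.78, 1.85 and 3.20 CPM against 3.80, 5.69 and 5.80, a log2 fold change of 0.85 (SE 0.26) that missed the threshold (adjusted p = 0.0686). Hoxb6 (0.44, adjusted p = 0.166), Hoxb5 (0.37, adjusted p = 0.216) and Hoxb3 (0.34, adjusted p = 0.169) likewise had an unadjusted p under 0.05 only. The 4 Hoxb genes expressed in all 6 groups had positive values with a median of 0.29, against -0.01 over all genes tested.

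Age and library set cannot be told apart either, since the titles number young and middle-aged HSC libraries in separate runs. The interaction of genotype and age over the 16 HSC libraries called no member of 30 tested, 0 at an unadjusted p under 0.05 over the logCPM limit, and 0 by DESeq2 or the likelihood ratio test (0.0213% of all genes in edgeR). For Hoxb9 it was -0.57 on the log2 scale, with a 95% interval from -1.26 to 0.11.

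**Figure D4:**
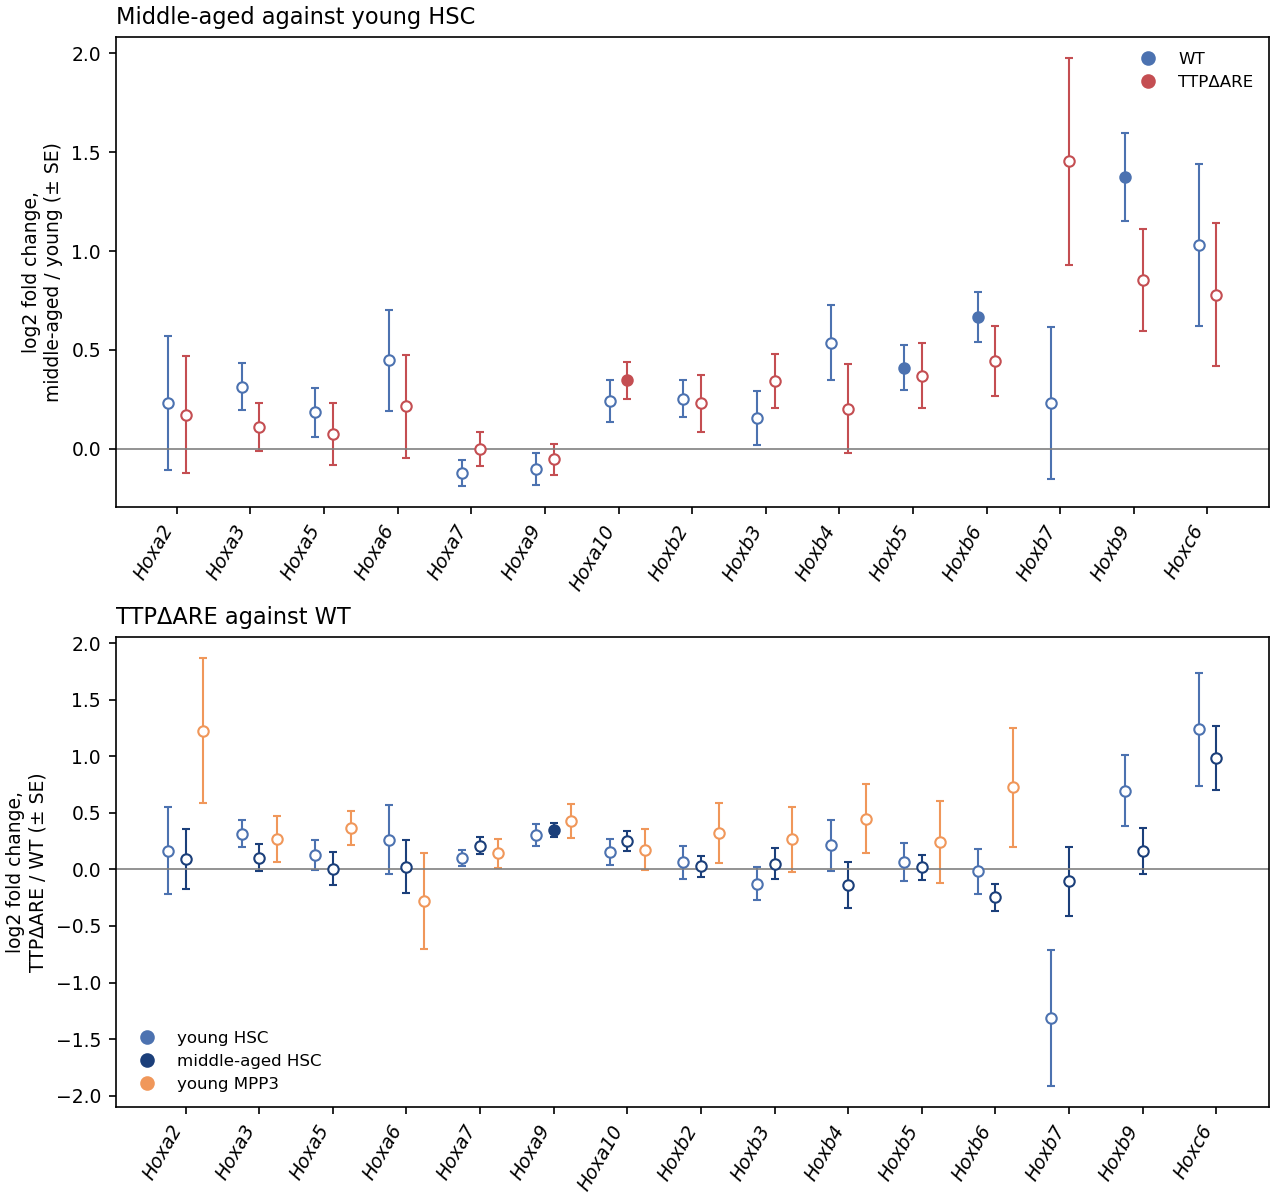
Log2 fold changes (± SE) of the expressed Hox genes. The upper panel shows age (middle-aged over young HSCs) in WT and TTPΔARE. The lower panel shows genotype (TTPΔARE over WT) in young HSCs, middle-aged HSCs and MPP3 cells. Filled points mark calls of edgeR. In the upper panel Hoxb9, Hoxb6 and Hoxb5 are filled for WT and Hoxa10 for TTPΔARE, and in the lower panel only Hoxa9 in middle-aged HSCs is filled.

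The third comparison asked what TTPΔARE does to the Hox genes within each age and cell type. Hoxa9 had the higher mean in TTPΔARE in all 3 settings, by 1.24-fold to 1.35-fold, and passed the test in middle-aged HSCs. No other member was called in any of them. These comparisons share their libraries with those above, so their values are set side by side with them and not counted together.

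In middle-aged HSCs Hoxa9 had 93.5, 101, 91.3, 96.7 and 96.8 CPM in the M-WT libraries and 119, 125 and 134 in the M-TTPΔARE libraries. All 3 lay above all 5, and the log2 fold change was 0.35 (SE 0.06, adjusted p = 0.0194 from edgeR), or 1.27-fold. It was the only member called higher of 20 tested, where 0.7% of all 21136 genes were called higher. The same libraries also parted without overlap in 3 marker lists, none with a marker at 0 in either group. The 5 megakaryocyte markers summed to 163–199 CPM in M-WT and 115–141 in M-TTPΔARE (4 over 1 CPM on average in both), the 11 MPP3 markers to 433–518 and 342–356 (6 and 7 over 1 CPM) and the 6 neutrophil markers to 6.07–13.8 and 3.31–4.81 (4 and 1 over 1 CPM). Their part in the Hoxa9 value was not tested. The call rested on all 3 M-TTPΔARE libraries, as the adjusted p was 0.0503, 0.0722 and 0.115 without replicate 1, 2 and 3. It was also lost with edgeR's likelihood ratio test (0.0985), the replicate block (0.142) and all 24 libraries in 1 fit (0.380), with log2 fold changes between 0.34 and 0.39 over the 8 settings tried and adjusted p-values down to 6.57e-06, with DESeq2. Hoxa7 (30.9–37.5 against 38.4–42.0 CPM, log2 fold change 0.21, SE 0.08, adjusted p = 0.211) and Hoxa10 (43.1–53.0 against 53.2–65.4 CPM, 0.25, SE 0.09, adjusted p = 0.189) did not overlap between the genotypes and did not pass after adjustment. Hoxb6 did not overlap either and was lower in M-TTPΔARE (5.85–6.72 against 5.03–5.75 CPM, -0.25, SE 0.12, adjusted p = 0.327 from edgeR).

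In young HSCs Hoxa9 had 123, 94.3, 91.9 and 102 CPM in Y-WT, while the Y-TTPΔARE libraries had 128, 133, 125 and 138. The groups did not overlap, but 0 of 26 Hox genes tested were called (0.0246% of all 24381 genes were), and for Hoxa9 the log2 fold change of 0.31 (SE 0.10) had an adjusted p of 0.411. At an unadjusted p under 0.05 and over the logCPM limit there were 2, Hoxa9 and Hoxa3 (0.32, SE 0.12, adjusted p = 0.555), and DESeq2 called 1, Hoxa9 (adjusted p = 0.0492), while edgeR's likelihood ratio test called 0. Y-WT replicate 1 stood closest to the TTPΔARE libraries and was also the Y-WT library with the lowest receptor level. Against that library alone, with the other 3 left out (chosen after seeing the data), the log2 fold change of Hoxa9 was 0.05 (SE 0.11, adjusted p = 0.869 from edgeR, with the lone sample assumed to vary like the others). The sum of the 12 HSC markers was 4442–4536 CPM in Y-TTPΔARE and 3831–4312 in Y-WT HSCs, also with no overlap, and their part was not tested.

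In MPP3 cells the libraries had 133, 85.8, 103 and 114 CPM of Hoxa9 in Y-WT against 134, 156, 122 and 194 in Y-TTPΔARE, with 1 WT library inside the range of the TTPΔARE libraries. The log2 fold change was 0.43 (95% interval 0.14 to 0.72, adjusted p = 0.269 from edgeR). Again 0 of 14 members tested were called, where 1.71% of all 19023 genes were. Hoxa5 had 9.42, 6.82, 9.55 and 8.01 CPM against 10.4, 10.1, 10.3 and 14.1, a log2 fold change of 0.36 (SE 0.15, adjusted p = 0.351), and these 2 were the members with an unadjusted p under 0.05. DESeq2 and the likelihood ratio test called 0 as well. The 8 markers of an erythroid list summed to 15.5–34.8 CPM in MPP3 cells of Y-WT and 60.7–130.0 in those of Y-TTPΔARE mice, and to 26.8–41.8 and 56.9–109 CPM in the HSCs of the same genotypes. The 8 markers of a list for T and NK cells summed to 37.1–46.1 and 69.1–82.3 CPM in the same MPP3 groups, and no marker of either list was at 0 in a group. Other lists were lower in the Y-TTPΔARE MPP3 libraries, the 5 megakaryocyte markers at 82.3–96.4 against 139–154 CPM (with Gp1bb at 0) and the 8 stromal and bone markers at 31.4–58.4 against 65.8–126. The part of these lists in the values was not tested.

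Of the members expressed in all 6 groups, the 5 Hoxa genes had positive log2 fold changes in young HSCs (median 0.15) and in middle-aged HSCs (median 0.21). The 4 Hoxb genes of this set had 3 positive and 1 negative value at each age (medians 0.06 and 0.02). All genes tested had medians of -0.07 and 0.01. In MPP3 cells the 4 Hoxb genes (median 0.29) and the 5 Hoxa genes (median 0.27) of this set had positive values, against a median of 0.04 over all genes tested. Outside the set, Hoxa6 had the lower mean in Y-TTPΔARE MPP3 cells (1.44 against 1.77 CPM) and Hoxa2 the higher (1.63 against 0.641). Hoxc6, the single expressed Hoxc gene, had 0.341, 0.987, 0.520 and 0.738 CPM in Y-WT HSCs, 1.12, 2.60, 1.27 and 1.32 in Y-TTPΔARE, 1.76, 1.47, 0.948, 1.07 and 1.36 in M-WT and 3.43, 3.01 and 1.72 in M-TTPΔARE. Its values in young HSCs did not overlap between the genotypes, but it was under the logCPM limit, and its log2 fold changes of 1.24 and 0.98 had adjusted p-values of 0.597 and 0.118 in edgeR.

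Since TTP binds AU-rich elements, the annotated 3′ untranslated regions (GENCODE M21, GRCm38) were searched on the transcribed strand for the nonamer TTATTTATT and for ATTTA, which it contains. The nonamer occurred in 3 of the 39 Hox genes (7.69%), against 6.91% of 20619 genes, and ATTTA in 29 (74.4%), against 61.6%. The nonamer was in Hoxb2, Hoxd3 and Hoxd13, of which Hoxb2 was expressed. Its site and the 5 ATTTA of Hoxa9, the gene called between the genotypes, are shown with the motif in capitals, written 5′ to 3′. They lie on the plus strand at chr11:96353913-96353941 for Hoxb2 and on the minus strand for Hoxa9, the latter from chr6:52224216-52224236 for site 1 through chr6:52223943-52223963, chr6:52223830-52223850 and chr6:52223518-52223538 to chr6:52223122-52223142 for site 5.
Hoxb2: agattgtagaTTATTTATTaaaattgttt
Hoxa9 site 1: aggggctcATTTAaaaagaga
Hoxa9 site 2: atatatatATTTAaaaaaaat
Hoxa9 site 3: tgtagctaATTTAatttgctc
Hoxa9 site 4: gattcatgATTTAtctacttt
Hoxa9 site 5: gtcgagatATTTAacttttgc
Hoxb2, the expressed member with the nonamer, had log2 fold changes between the genotypes of 0.06 (SE 0.15) in young HSCs, 0.03 (SE 0.09) in middle-aged HSCs and 0.32 (SE 0.27) in MPP3 cells, and was called in none of them. A match of letters is not a measured binding site.

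The 24 members expressed in no group were not silent in the counts. None was at 0 in all 24 libraries, 20 stayed under 1 CPM in every library, and Hoxb1, Hoxc8, Hoxd4 and Hoxd8 reached 1 CPM in some. Their sum ranged from 0.207 to 12.2 CPM per library, or from 0.104% to 4.80% of the Hox CPM. The highest sum was in a Y-WT HSC library, a group that ran from 2.54 to 12.2 CPM, where the median was 3.21 in M-WT HSCs and 2.50 in Y-WT MPP3 cells. Hoxb1, for example, had 0, 1.87, 1.93 and 1.42 CPM in Y-WT HSCs, and Hoxc8 0.472, 2.45, 2.23 and 1.59, so that replicate 1 was the lowest library for both.

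These sums went along with the receptor genes. Across the 24 libraries Pearson's r between the log2 summed CPM of the 24 members and that of the receptor genes was 0.90, given as a description, since both are shares of the same libraries. For single members r was over 0.5 for 12 of the 24 (up to 0.93 for Hoxb1) and for 0 of the 15 expressed members, where it ran from 0.00 for Hoxa9 to 0.35 for Hoxb2. Hoxd8 had 0.524–1.62 CPM in Y-WT and 0–0.141 in M-WT HSCs and Hoxc8 0.472–2.45 and 0–0.506, values given with no test, since both passed the filter on low counts through the young group. Y-WT HSC replicate 1, with 61.4 CPM of receptor genes, had 2.54 CPM of these 24 members in all.

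**Figure D5:**
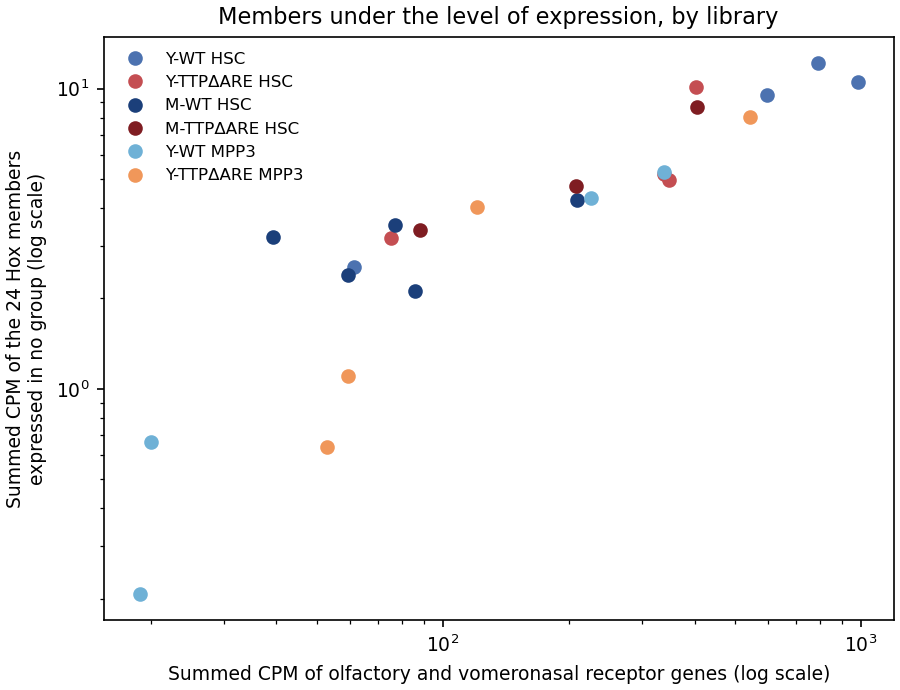
Summed CPM of the 24 Hox genes that were expressed in no group (vertical, log scale) against the total level of the receptor genes in CPM (horizontal, log scale), with a point for each of the 24 libraries coloured by group. The points climb together, from 0.207 CPM at the lower left to 12.2 at the upper right, where Y-WT HSC libraries lie.

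HOX proteins bind DNA together with TALE homeodomain cofactors of the PBX and MEIS families. All 9 genes of a TALE list were tested in every comparison. Between MPP3 cells and HSCs 4 were called lower in each genotype, among them Meis1 and Pbx3, and 2 were called higher in WT and 1 in TTPΔARE. Among all genes tested 14.5% were called higher and 7.69% lower in WT, and 9.07% and 7.22% in TTPΔARE. Meis1 fell from 578 ± 45.9 to 462 ± 42.1 CPM in WT (SD, n = 4 each; log2 fold change -0.37, SE 0.11, adjusted p = 0.0311 from edgeR) and Pbx3 from 28.5 ± 1.51 to 15.7 ± 3.14 (-0.91, SE 0.12, adjusted p = 0.000768). The list's median was -0.91 in WT, against -0.16 over all genes tested.

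With age 3 of the 9 were called higher in WT HSCs and 3 in TTPΔARE HSCs, Pbx3 among them, where 8.38% and 4.98% of all genes tested were called higher. Meis1 did not pass (0.16, adjusted p = 0.0505 in WT, and 0.22, adjusted p = 0.0644 in TTPΔARE, from edgeR).

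Regulators of Hox transcription were counted in the same way. Of 15 tested genes of the MLL1 complex, DOT1L and their partners, which maintain active Hox genes, 7 were called higher and 1 lower in WT MPP3 cells (median 0.32), next to the 14.5% and 7.69% of all genes given above. The 1 lower gene was Mllt3, a subunit of the super elongation complex known for its role in HSC maintenance and also 1 of the 12 HSC markers, with 231 ± 35.6 CPM in Y-WT HSCs and 45.8 ± 10.7 in Y-WT MPP3 cells (log2 fold change -2.38, SE 0.19, adjusted p = 4.76e-05). Dot1l (0.69) and Mllt1 (0.67) were the higher genes with the smallest p. Of 19 Polycomb genes, which keep Hox genes repressed, 7 were called higher and 2 lower (median 0.07), led by Ezh2 (58.5 ± 5.43 against 165 ± 7.45 CPM, log2 fold change 1.46, SE 0.09, adjusted p = 2.08e-05), Cbx2 (1.31) and Suz12 (0.77). In TTPΔARE mice 2 activators were called higher and 2 lower, and 4 Polycomb genes higher and 3 lower, next to 9.07% and 7.22% of all genes.

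With age the activators had 4 higher and 0 lower genes in WT HSCs and 1 higher and 2 lower in TTPΔARE HSCs, and Mllt3 was higher in both (0.37 and 0.49). The Polycomb list had 2 higher and 2 lower genes at each genotype. Of all genes, 8.38% were called higher and 3.69% lower in WT, and 4.98% and 3.24% in TTPΔARE. Ezh1 was higher (0.58 and 0.69) and Ezh2 lower (-0.30 and -0.83) in both. Between the genotypes 0 activators were called in any of the 3 settings by edgeR's quasi-likelihood test, and 1 Polycomb gene, Cbx7, was higher in middle-aged HSCs (0.31, SE 0.07, adjusted p = 0.0445), where 0.7% of all genes were.

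Non-coding genes of the clusters were also lower in MPP3 cells where they were called. Of 19 listed, 17 were in the table and 6 were tested in WT MPP3 cells against HSCs, of which 3 were called lower, Hoxb3os, Hoxb5os (log2 fold change -1.25, SE 0.18, adjusted p = 0.000923) and Hoxaas2 (-1.04, SE 0.22, adjusted p = 0.00778). Of all genes tested there, 7.69% were called lower. In TTPΔARE mice 2 of 4 tested non-coding genes were called lower, Hoxb3os (-1.29) and Hoxb5os (-1.02), next to 7.22% of all genes. With age or genotype 0 of the non-coding genes were called in any comparison. Of 7 tested genes of the ParaHox group and at the borders of the clusters, 1 was called higher and 1 lower in MPP3 cells of either genotype. The shares of all genes called higher and lower were 14.5% and 7.69% in WT and 9.07% and 7.22% in TTPΔARE. Skap1, beside the Hoxb cluster, was lower (-2.66 in WT and -2.09 in TTPΔARE), and Cbx5, which encodes a heterochromatin protein, was higher (0.82 and 0.69). Between the genotypes Cbx5 was called lower in middle-aged HSCs (-0.45, SE 0.07, adjusted p = 0.0109 from edgeR).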

How the data were processed

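The authors made SMARTer libraries from sorted cells, trimmed the reads (Trim Galore! 0.4.3, Cutadapt), aligned them to mm10 with STAR and counted them per gene with featureCounts on GENCODE M22, according to the study's methods and the submitters' processing notes. The deposited values are raw counts, whole numbers per gene symbol with no normalization. The kit named in the labels differs from the one in the methods, and the strand setting of the counting is not given in the sources used here. The study used 3 of the 4 Y-TTPΔARE MPP3 libraries without saying which, and all 4 were used here.

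The Hox genes and the lists of cofactors, regulators, non-coding genes and markers were chosen with earlier results of these data known. The tests were run with edgeR 4.0.16 and limma 3.58.1 under R 4.3.3. For each comparison the libraries of its groups were filtered with filterByExpr (minimum count 10, minimum total count 15), scaled by TMM and fitted by group, and edgeR's quasi-likelihood F test was run over all genes kept, with Benjamini-Hochberg adjustment. The limits for a call (adjusted p under 0.05, fold change over 1.2, logCPM over 1.5) are those of the study's methods. The SE is the log2 fold change divided by the square root of F. Exact permutation tests used log2(CPM + 0.1) and are two-sided. Total counts of 24261371 to 39934554 set the depth, and counting intervals are at the 95% level. All Hox genes expressed in a group, called, or at an unadjusted p under 0.05 over the logCPM limit were named with values. The scripts were tested on simulated data with known changes.

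Whether equal replicate numbers in the titles mark a shared mouse or day is not given in the labels. Samples with the same number deviated together in 1 comparison, that of cell types in TTPΔARE, where the correlation of their deviations was 0.14 to 0.32 in 4 of 4 pairs. There the numbers met the limit set for pairing (every pair over 0.1). The fit by group without a block stayed the one reported, and the blocked value stands beside it where it changed a call. Alternatives were DESeq2 1.42.0, edgeR's likelihood ratio test, RLE factors, library totals, no filter on low counts, no logCPM limit, all 24 libraries in 1 fit, the replicate number as a block, each library left out in turn and, added after seeing the data, the Y-WT HSC libraries over 500 CPM in receptor genes left out. Gene positions, exon lengths and 3′ untranslated regions come from GENCODE M21 (GRCm38), not from the M22 release of the counts, and 54510 of 55376 symbols had an exon length. Results of 1 listed gene are not reported here.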

Additional observations from a re-analysis of the deposited data

Results flagged for a closer look

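In 8 of 100 values of a member or cluster tested within a group of 4 or 5 libraries, 1 library stood apart from the others by more than its group's own range allows in Dixon's test. Chance flags about 1 in 20 groups. Of the 8, 3 came from Y-TTPΔARE MPP3 replicate 4, with 14.1 CPM of Hoxa5 (10.1–10.4 in the other 3), 5.90 CPM of Hoxb4 (2.74–3.25) and 3.42 CPM of Hoxb5 (1.60–1.70), and this library also had the highest summed Hox level, 354 CPM. Its TMM factor was 0.731. By library totals it had 10.3 CPM of Hoxa5 (9.23–9.92 in the other 3), 4.31 of Hoxb4 (2.51–3.14) and 2.50 of Hoxb5 (1.43–1.64), and a summed Hox level of 259 CPM, where the highest library, in M-TTPΔARE HSCs, had 353.5. Hoxb9 was at 0.361 CPM in Y-TTPΔARE MPP3 replicate 3 and at 0 in the others of that group, and Hoxb7 at 0.0578 CPM in Y-WT MPP3 replicate 2 and at 0 in the others. With all other libraries at 0, Dixon's test flags any value, however small. The rate of chance flags given above therefore does not hold for Hoxb9 and Hoxb7. Hoxc6 reached 2.60 CPM in Y-TTPΔARE HSC replicate 2 (1.12–1.32 in the others). Among M-WT HSCs, Hoxa2 reached 2.56 CPM in replicate 5 (1.36–1.66), and the summed Hoxc level 2.99 CPM in replicate 1 (1.68–1.98). Groups of 3 were not tested.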

How the results depend on the processing

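The fall of Hoxb2 and Hoxb5 in MPP3 cells passed the threshold under all alternatives and with any library left out, in both genotypes, and none of the 31 fold changes recomputed, those of members called or at an unadjusted p under 0.05 over the logCPM limit, changed sign (513 values, of which 454 kept their side of the threshold, 48 lost it and 11 crossed it). The count of called members in WT cell types was 6 with any library left out and 10 with no logCPM limit. In TTPΔARE it ran from 3 to 6 with a library left out, and it was 5 with the replicate block or RLE factors, 4 with no filter on low counts and 9 with no logCPM limit. With age in WT it was 5 with no logCPM limit, 2 with the replicate block, 0 with all 24 libraries in 1 fit, 0 without the Y-WT HSC libraries of high receptor level (chosen after seeing the data, and leaving 1 young library that is assumed to vary like the others) and from 2 to 6 with a library left out, 6 without Y-WT HSC replicate 1. With age in TTPΔARE it was 2 with DESeq2 or with no filter on low counts, 0 with the likelihood ratio test, with all 24 libraries in 1 fit and with the replicate block, and from 0 to 2 with a library left out. The single genotype call in middle-aged HSCs was 0 with the likelihood ratio test, all 24 libraries in 1 fit or the replicate block, and from 0 to 1 with a library left out. In young HSCs 1 member was called with DESeq2, and in MPP3 cells 1 with all 24 libraries in 1 fit. The number of members expressed in Y-WT HSCs was 15 at a limit of 0.5 CPM and 10 at 2 CPM. The cause of these moves was not tested. Both interactions kept 0 calls throughout. Apart from the cell types in TTPΔARE the replicate numbers did not pair the libraries. Under library totals the share of higher genes among all calls was 36.7% in place of 55.7% for cell types in TTPΔARE, 48.4% in place of 69.4% for age in WT and 62.9% in place of 49.7% for genotype in middle-aged HSCs, with 6, 3 and 1 members called.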
